A study of Zea mays with 3 samples.

Results

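The stretch of maize chromosome 10 from 8000001 to 17000000 in B73 RefGen_v4 holds a domain of CENH3 enrichment in the line F3-152 that lies 38.7 Mb from the B73 centromere of the same chromosome. This region was cut into 900 bins of 10 kb, of 210639 bins on chromosomes 1 to 10. It was chosen by the read counts of F3-152, with B73 as the control, so the height of F3-152 here and the low level of B73 are a description and carry no test. The study digested nuclei of young leaves with micrococcal nuclease, precipitated chromatin with a rabbit serum raised against peptides of maize CENH3, size-selected the DNA on a gel and sequenced it as read pairs. Libraries came from 3 lines: the inbred B73, labelled the control and the source of the reference genome, and F3-152 and F3-600, whose labels give the line name alone, in a series titled for irradiated material. How the F3 lines were bred, how many plants went into a library and whether those plants were alike are not given in the sources used here.

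CENH3 is the form of histone H3 that takes the place of the ordinary histone in centromeric nucleosomes, and the kinetochore is built on it. A maize centromere is usually rich in the tandem repeat CentC and in centromeric retrotransposons, but CENH3 can also settle on chromosome arms that lack these repeats, which is known as a new or de novo centromere. Micrococcal nuclease cuts between nucleosomes, so the sequenced fragments report where CENH3 nucleosomes lie. Their length is not simply that of the DNA guarded by 1 nucleosome, since the DNA was size-selected and many fragments were long. Paired fragments over 250 bp made up 33.65% in B73, 16.1% in F3-152 and 66.3% in F3-600. No genome sequence or annotation of this build was used here, so genes and repeats inside the region are not named.

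Each line was 1 library, so the intervals given cover counting error only and no test between lines was possible. The deposited reads numbered 7716211 for B73, 21026602 for F3-152 and 14454963 for F3-600. Reads were counted by their midpoint, and each library was divided by the median of its non-empty bins, which was 90 reads in F3-152, 64 in F3-600 and 32 in B73. A level of 1 is therefore the usual level of the chromosome arms in that library, and a bin was called enriched at 10 times the median or more. The read names sampled from each library gave 1 instrument. With 1 library per line, effects of the line and of its run cannot be told apart. No input library was used here, so a gain in copy number and a gain in CENH3 cannot be told apart either.

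CENH3 reads in this region were high in F3-152 alone. In F3-152, 33 of the 900 bins were enriched, against 0.306% of all bins on chromosomes 1 to 10. In B73 and in F3-600 none of the 900 was, against 0.348% and 0.233% of all bins in those libraries. The bins of F3-152 ran from 0 to 48.6 times the median, with 1.60 in the middle of the order. Those of F3-600 ran from 0 to 3.59, with a median of 0.891, and those of B73 from 0 to 3.31, with a median of 0.984. Every enriched bin lay within a stretch of 0.930 Mb, from 11840001 to 12770000, and the highest of the 807 bins outside it reached 8.24 times the F3-152 median.

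**Figure D1:**
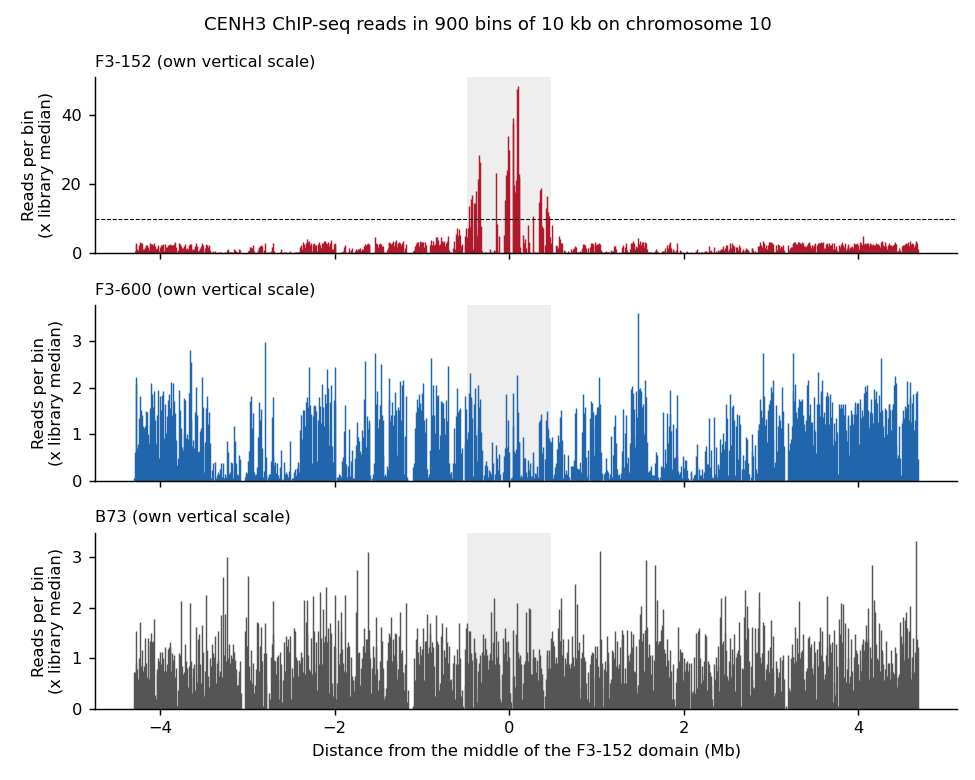
Reads per bin of 10 kb, as multiples of the library median, against the distance in Mb from the middle of the F3-152 domain, with 1 panel per library and its own vertical scale. The domain of 0.930 Mb is shaded and the dashed line marks 10 times the median; F3-152 reaches 48.6 there, while F3-600 and B73 stay at or below 3.59 in all 900 bins.

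Over the whole stretch of 93 bins, F3-152 had 75808 reads from 38781 fragments, F3-600 had 4079 reads from 2137 fragments, and B73 had 2820 reads from 1682 fragments. As a mean level this was 9.06 times the median in F3-152 (95% exact Poisson interval over fragments 8.97 to 9.15), 0.685 times in F3-600 (0.657 to 0.715) and 0.948 times in B73 (0.903 to 0.994). F3-600 was thus below its own usual level in the same bins. These intervals cover counting error only, so no difference between the lines is read from them. The stretch took 0.361% of the F3-152 fragments, with an exact binomial interval of 0.358% to 0.365%. Duplicates were kept, which makes these intervals too narrow. With 1 read kept per start, end and strand the mean level of F3-152 was 7.496 times the median.

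The B73 centromere of chromosome 10, which ran from 51470001 to 52780000 by the same rule, was also enriched in the F3-152 library. It held 97 enriched bins of 131 in F3-152, with a mean level of 18.7 times the median (18.6 to 18.8), beside 20.2 in F3-600 and 23.7 in B73. F3-152 therefore had 2 separate enriched domains on this chromosome, and the one near 12 Mb held 0.361% of the fragments against 1.05% in the centromere. A single library of leaf tissue does not show whether both were enriched on the same chromosomes. A further domain of F3-152, on chromosome 1 from 140710001 to 142100000, had 99 enriched bins of 139 and a mean level of 18.1. Enriched bins made up 35.5% of the stretch near 12 Mb, 74.0% of the centromere and 71.2% of the chromosome 1 domain. Over all their bins the medians were 4.78, 19.9 and 16.2 times the F3-152 median. Within the enriched bins alone they were 19.0, 22.3 and 21.2 times. These bins were picked at 10 times or more in the same counts, which draws the medians together, so no likeness is read from them. Single enriched bins of the stretch near 12 Mb ranged from 10.7 to 48.6 times.

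The 33 enriched bins fell into 12 runs of neighbouring bins, of 10 to 90 kb (21 runs with bins of 5 kb and 7 with bins of 20 kb), and into 5 clusters when runs up to 40 kb apart were joined. The left cluster, from 11840001 to 11980000, held 9 enriched bins with a median of 16.8 times and 23.5% of the reads in enriched bins. The central cluster, from 12250001 to 12430000, held 14 enriched bins with a median of 23.5 times and 55.8% of those reads. The right cluster, from 12640001 to 12770000, held 8 enriched bins with a median of 13.9 times and 16.0% of those reads. The other 2 clusters were single bins, at 12150001 with 23.2 times and at 12570001 with 10.7 times. Most of the signal therefore sat in the middle of the stretch, with lower shoulders on both sides and long gaps between them.

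The longest run covered 90 kb from 12340001 to 12430000. It had 24871 reads in F3-152, 668 in F3-600 and 297 in B73, which are 30.7 (30.2 to 31.2), 1.16 (1.04 to 1.29) and 1.03 (0.890 to 1.19) times the medians. Its bins ranged from 17.8 to 48.6 times in F3-152. The adjoining run of 40 kb, from 12270001 to 12310000, had 27.7 times in F3-152, 1.12 in F3-600 and 1.16 in B73. In the right cluster, the run of 40 kb from 12640001 to 12680000 had 15.9, 1.199 and 0.914 times. In the left cluster, the run from 11900001 to 11930000 had 15.7, 1.54 and 1.18 times, and the run from 11950001 to 11980000 had 25.5, 1.79 and 0.906 times. In these 5 longest runs the 2 libraries without the domain were near or moderately above their own median.

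The highest single bin, from 12400001 to 12410000, had 48.6 times in F3-152, 1.48 in F3-600 and 1.12 in B73. The next 4 were at 47.6 from 12390001, 39.2 from 12350001, 37.4 from 12340001 and 33.8 from 12290001, all in the central cluster. The 5 bins just above the threshold were at 10.7 (from 12760001 and from 12570001), 11.6 (from 12660001), 12.02 (from 12750001) and 13.1 (from 12720001). Just below it were bins at 9.06 (from 11860001), 8.31 (from 12160001), 8.24 (from 12790001), 8.02 (from 12520001) and 8.01 (from 11980001). No wide step separated the 2 sides of the threshold, and the bin from 12790001 lies outside the stretch.

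The level of F3-152 rose and fell unevenly across both called ends. From the left end inwards, the first 3 bins had 13.8, 7.64 and 9.06 times the median in F3-152, and outwards the next 3 had 7.36, 4.74 and 7.39. From the right end inwards, the first 3 bins had 10.7, 12.02 and 16.4, and the next 3 outwards had 4.59, 2.98 and 8.24. The bin after these, from 12800001, dropped to 0.267 in F3-152, with 0.0625 in F3-600 and 1.34 in B73. Where the stretch began and ended depended on the threshold: at 5 times the median it ran from 11690001 to 12800000, and at 20 times from 11950001 to 12430000.

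Between the enriched bins lay 60 bins in 11 gaps, of which 34 were below 0.5 times the median in F3-152, 44 in F3-600 and 13 in B73. In 25 of the 60, both F3 lines were below this level and B73 was not. Of all bins, 31.0% were below it in F3-152, 31.6% in F3-600 and 15.4% in B73. Both F3 lines were below it and B73 was not in 15.5% of all bins. The gap bins were picked as not enriched in F3-152, so the counts that use F3-152 follow in part from that choice. The longest gap, 170 kb from 11980001 to 12150000, had 1269 reads in F3-152, 325 in F3-600 and 602 in B73. These are 0.829 (0.768 to 0.895), 0.299 (0.256 to 0.346) and 1.11 (0.995 to 1.23) times the medians. The first bin of this gap, from 11980001, held 721 of the F3-152 reads, at 8.01 times, and no other bin of it was above 1.32 times. The gap of 140 kb from 12430001 to 12570000 had 1.97 times in F3-152 (single bins from 0 to 8.02), 0.283 in F3-600 and 1.05 in B73. The gap of 90 kb from 12160001 to 12250000 had 2.16 (single bins from 0.0222 to 8.31), 0.264 and 0.812 times. The gap of 60 kb from 12580001 to 12640000 had 0.267, 0.240 and 0.885 times. In all 4, F3-600 was below 0.3 times its median while B73 was above 0.8 times. The 40-kb gap from 12680001 to 12720000 differed, since B73 was low there too, with 4.43, 0.445 and 0.328 times. The 30-kb gap from 12310001 to 12340000 cut the central cluster and was low in all 3 libraries, at 0.0852 in F3-152, 0.0625 in F3-600 and 0.146 in B73.

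**Figure D2:**
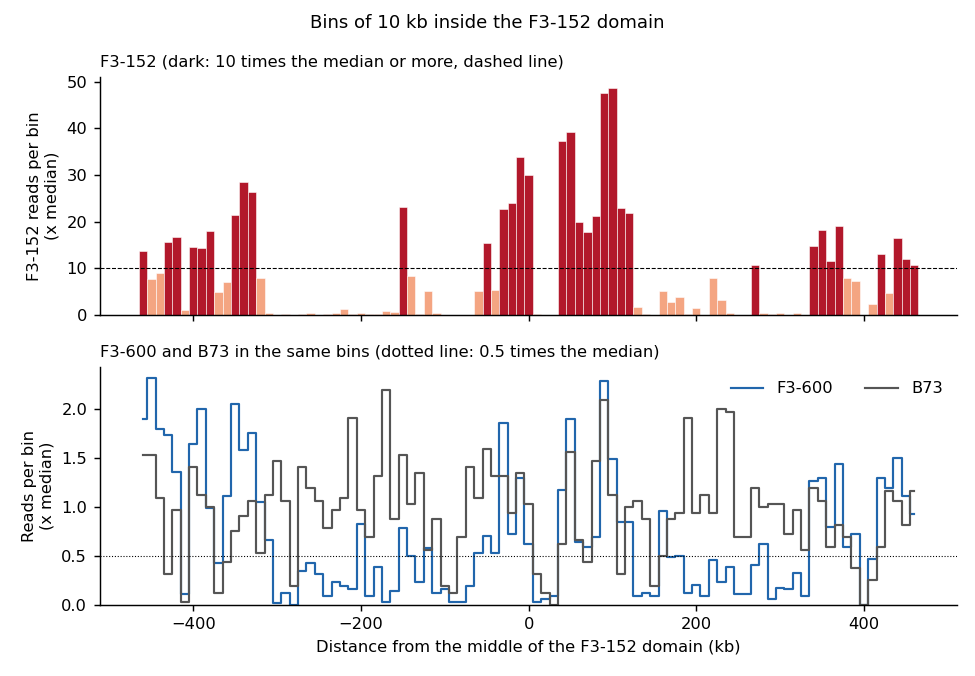
The 93 bins of 10 kb from 11840001 to 12770000, plotted by distance in kb from the middle of the domain, with reads as multiples of the library median. The upper panel shows F3-152 with its 33 enriched bins in dark red; the lower panel shows that F3-600 (blue) is below 0.5 times its median (dotted line) in 45 of the bins, mostly where F3-152 has its gaps, while B73 (grey) is so in 16.

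With 1 exception, the bins where F3-600 had few reads were not enriched in F3-152. F3-600 is the library that the choice of the region did not use, so its level was used to divide the 93 bins. In the 48 bins where F3-600 was at 0.5 times its median or above, F3-152 averaged 16.6 times (16.4 to 16.8) and 32 bins were enriched. In the 45 bins where F3-600 was below 0.5 times, F3-152 averaged 1.002 times (0.960 to 1.05) and 1 bin was enriched, the one from 12570001. B73 averaged 0.994 and 0.898 times in these sets. Over all bins of chromosomes 1 to 10, 630 of 144122 (0.437%) were enriched in F3-152 where F3-600 was not low. Where F3-600 was low, 14 of 66517 were, so the scarcity of enriched bins there was not particular to the stretch. For comparison, beyond 1 Mb from the domain F3-152 averaged 2.14 times in the 408 bins where F3-600 was not low and 0.267 times in the 199 bins where it was. In the bins that were low in F3-600 these means rest on few bins: the F3-152 median was 0.200 in the stretch and 0.189 beyond 1 Mb, and 33 of the 45 bins were below 0.5 times in F3-152 too. With the bins below 0.5 times in F3-600 left aside, 66.7% of the stretch was enriched. The same restriction gave 77.6% of the chromosome 10 centromere and 72.3% of the chromosome 1 domain. It removed 45 of 93 bins of the stretch, 6 of 131 of the centromere and 2 of 139 of the chromosome 1 domain. F3-600 is itself enriched in the centromere, so that share is no like comparison.

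The 34 deepest gap bins were those below 0.5 times the median in F3-152. They averaged 0.177 times in F3-152 (0.157 to 0.199), 0.171 in F3-600 (0.149 to 0.197) and 0.877 in B73 (0.806 to 0.952). Of the 34, 33 were also below 0.5 times in F3-600 and 8 in B73. Among the low bins of F3-152 over all bins, 82.0% were low in F3-600 and 35.7% in B73. The level of F3-152 follows from how these bins were picked, so it is not compared with the other libraries. The remaining 26 gap bins averaged 4.41 times in F3-152, 0.633 in F3-600 and 0.914 in B73 (picked on F3-152 as well).

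Such low bins were common over the whole genome, and their share of the 900 bins was near the share of all bins. Bins below 0.5 times the median made up 29.6% of the 900 in F3-152, against 31.0% of all bins, 35.8% in F3-600, against 31.6%, and 15.2% in B73, against 15.4%. Both F3 lines were low with B73 not low in 178 of the 900 bins, or 19.8%, against 15.5% of all bins. Inside the stretch this held for 25 of 93 bins, or 26.9%, and outside it for 153 of 807, or 19.0%. The low bins of F3-152 were nearly all low in F3-600 as well, in 33 of 34 inside the stretch and in 226 of 232 outside it. Read from the side of F3-600, 73.3% of its low bins inside the stretch and 81.6% of those outside were low in F3-152. Over all bins of the genome the shares were 82.0% and 80.4%.

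Bins low in F3-600 were fewer in the chromosome 1 domain of F3-152, where F3-600 is not enriched either, at 2 of 139 against 45 of 93 here. Over all bins the share was 31.6%. The chromosome 10 centromere had 6 of 131, but it is no like comparison, since F3-600 and B73 are themselves enriched there. The bins of the centromere that were low in F3-152 were also low in B73, in 6 of 6, as was the single such bin of the chromosome 1 domain. Those centromere bins held no read in F3-152 or B73, and the chromosome 1 bin held none in B73. Over all bins, 35.7% of the low bins of F3-152 were low in B73. Neighbouring bins are not independent, so these counts are given without a test.

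Across bins, the profile of F3-152 followed that of F3-600 more closely than that of B73. Over the 93 bins of the stretch Spearman's rho was 0.857 between the F3 lines, 0.235 between F3-152 and B73 and 0.256 between F3-600 and B73. Over the 807 bins outside it the values were 0.906, 0.414 and 0.406. Within the 33 enriched bins, which were picked on F3-152 and so span a cut range of it, rho was 0.165 and Pearson's r 0.304 between the F3 lines, and no reading is drawn from these values. The bins of all libraries share 1 reference and the limits of unique mapping to it, and neighbours are not independent, so these are descriptions. B73 was also shallower, with a median of 32 reads per bin against 90 in F3-152 and 64 in F3-600. Its distinct reads were 79.8%, against 96.35% in F3-152 and 96.4% in F3-600. The part of depth and repeated reads in the lower rho of B73 was not tested. Whether the low stretches of the F3 lines differ in sequence from B73 was not tested.

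Divided by F3-600, the F3-152 signal was highest in the middle of the stretch. In blocks of 100 kb the ratio of the scaled reads was highest from 12300001 to 12400000, at 26.4 (exact binomial interval over fragments 23.4 to 29.96). This block had 19195 reads in F3-152, 517 in F3-600 and 266 in B73. To its left the ratio was 17.7, 10.7, 1.70, 10.9 and 6.10 in successive blocks, and to its right 19.4, 9.20, 11.6 and 8.23. The lowest block of the stretch was the one from 12000001 to 12100000, at 1.70 (1.27 to 2.30), with 290 reads in F3-152 and 121 in F3-600 against 356 in B73. It lies within the longest gap.

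**Figure D3:**
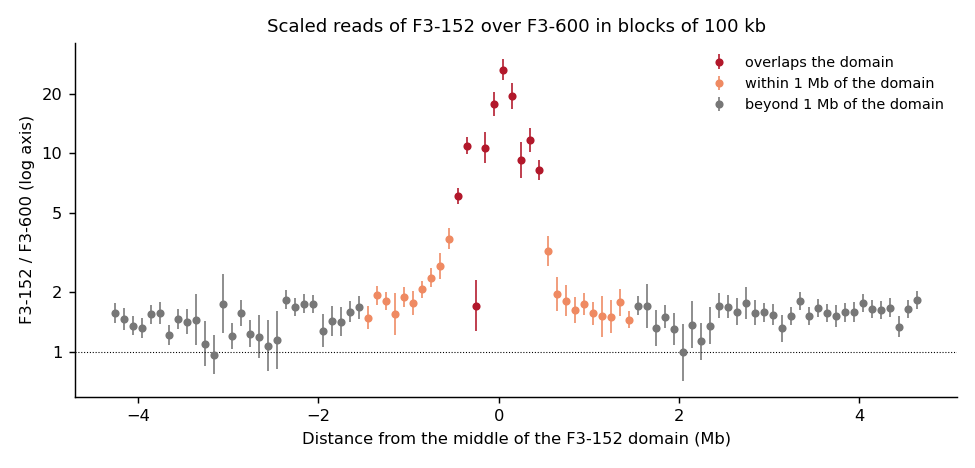
Ratio of the scaled reads of F3-152 to those of F3-600 in 90 blocks of 100 kb, on a log axis, against the distance in Mb from the middle of the domain, with exact binomial intervals as bars. Blocks that overlap the domain (dark red) peak at 26.4 with 1 block at 1.70, and the 60 blocks beyond 1 Mb (grey) lie between 0.963 and 1.82.

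The ratio was also raised just outside the called ends. In the 60 blocks beyond 1 Mb from the domain the ratio had a median of 1.54 and lay between 0.963 and 1.82. Leftwards from the domain it was 3.70 (3.28 to 4.19), 2.69 (2.33 to 3.13), 2.35 (2.10 to 2.63) and 2.06 (1.87 to 2.27), so these 4 blocks in a row were above all of the distant ones. Farther left within 1 Mb, the blocks from 11200001, at 1.885 (1.69 to 2.11), and from 10900001, at 1.92 (1.72 to 2.15), were above them too, with lower blocks between. Rightwards it was 3.20 (2.71 to 3.80), 1.95 (1.61 to 2.37) and 1.81 (1.51 to 2.16), of which the last lay within their range. The flanks themselves were not at the same level in both lines, since F3-152 averaged 1.53 times its median (1.51 to 1.54) and F3-600 0.992 times (0.978 to 1.01) beyond 1 Mb. A ratio of 1 is therefore not the base line here.

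In windows of 1 kb, the stretch was made of dense patches and empty ground. The bin median scaled to 1 kb is 9 reads per window in F3-152, 6.4 in F3-600 and 3.2 in B73. Of the 930 windows, 289 had 10 times this level or more in F3-152, 1 in B73 and 0 in F3-600. No read fell in 311 windows of F3-152, or 33.4% (exact binomial interval 30.4% to 36.6%), in 356 of F3-600, or 38.3%, and in 300 of B73, or 32.3%. Empty windows came in runs of up to 23 kb, so neighbours are not independent and this interval over windows is too narrow. In the enriched bins of F3-152 9.09% of the windows were empty, with a median of 165 reads per window and quartiles of 78.8 and 273. In the gap bins 46.8% were empty, with a median of 2 reads. Of the 600 windows in gap bins 46 still reached 10 times the level in F3-152, so the gaps held short high patches.

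**Figure D4:**
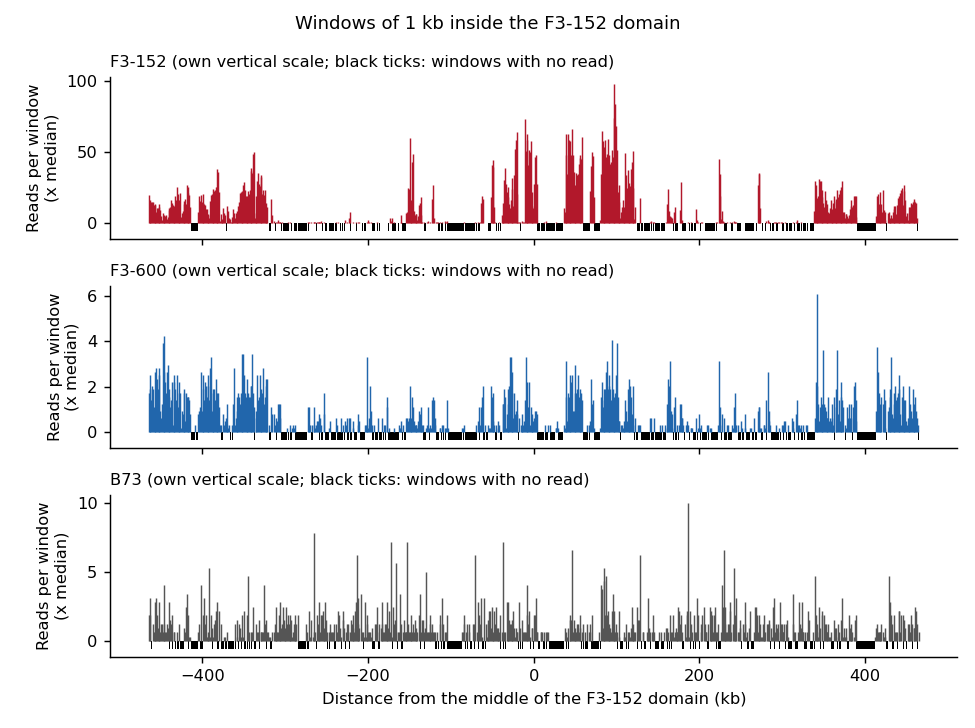
Reads in the 930 windows of 1 kb from 11840001 to 12770000, as multiples of the bin median scaled to 1 kb, by distance in kb from the middle of the domain, with 1 panel per library and its own scale. Black ticks mark windows without a read, of which F3-152 had 311, F3-600 had 356 and B73 had 300; F3-152 reaches 97.2 times in the central patch.

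The 5 highest windows were in the central cluster. Those from 12401001 to 12405000 were 4 neighbours with 662, 875, 752 and 614 reads in F3-152, with 5, 10, 11 and 16 in F3-600 and 2, 7, 2 and 4 in B73. The window from 12294001 had 658, 9 and 2 reads. The highest stood at 97.2 times the level of the library. The signal was nevertheless spread out, since the highest 10% of the windows in enriched bins held 27.3% of their reads.

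Empty windows were shared between libraries to different extents. Of the 311 windows empty in F3-152, 244 were also empty in F3-600, 162 in B73 and 135 in both. Reads in B73 alone filled 109 windows that were empty in both F3 lines. The longest empty run, 23 kb from 12695001 to 12718000, had no read in either F3 line and 1 read in B73, so it was nearly empty in every library. The run of 17 kb from 12201001 to 12218000 had 0 reads in F3-152, 1 in F3-600 and 0 in B73. The runs of 12 kb from 12222001 to 12234000 and of 11 kb from 12021001 to 12032000 had no read in either F3 line and 20 and 6 reads in B73. The run of 11 kb from 12320001 to 12331000 had 0, 4 and 4 reads. Unique mapping can leave repeated sequence empty in any library. Depth also sets a limit: a count of 0 allows up to 3 reads, which in a window of 1 kb is 0.333 times the usual level in F3-152, 0.469 in F3-600 and 0.938 in B73. An empty window of B73 alone could therefore not be told from an ordinary one.

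At single bases, the enriched bins had a median depth of 15 reads in F3-152 and a highest depth of 165, with 19.5% of the bases uncovered. In the gap bins 77.8% of the bases were uncovered in F3-152, 85.2% in F3-600 and 82.5% in B73. In the enriched bins the shares were 52.6% in F3-600 and 79.8% in B73. The mean depth of the enriched bins was 18.9 reads in F3-152, 0.777 in F3-600 and 0.326 in B73.

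Fragments, whose length the choice of the region did not use, were shorter in the enriched bins than in the flanks in F3-152. In the enriched bins of F3-152 the paired fragments had a median length of 159 bp, with quartiles of 141 and 216 bp, against 171 bp, with quartiles of 150 and 211 bp, in the flanks beyond 1 Mb. Fragments of 160 bp or less made up 51.9% (exact binomial interval 51.3% to 52.4%) of 31607 in the enriched bins and 38.0% (37.5% to 38.4%) of 40633 in these flanks. The flanks within 1 Mb lay between, at 42.7% (41.9% to 43.4%). The gap bins had 50.1% (48.7% to 51.5%). Single blocks of 100 kb beyond 1 Mb ranged from 28.6% to 50.6%, and the highest of them, from 10400001 and from 10500001, had 50.15% of 337 fragments and 50.6% of 344, so such shares were not particular to the stretch. In the same library the enriched bins of the chromosome 10 centromere had 53.3% and a median of 158 bp, and those of the chromosome 1 domain 51.5% and 159 bp.

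In the other libraries the intervals of the same bins and the distant flanks overlapped. In F3-600 the share of fragments of 160 bp or less was 8.03% (6.60% to 9.66%) in the same bins and 8.81% (8.41% to 9.23%) in the flanks beyond 1 Mb, against 16.4% (16.1% to 16.7%) in the chromosome 10 centromere. In B73 it was 24.1% (20.1% to 28.4%) in the same bins, 25.02% in the flanks beyond 1 Mb and 25.5% in the centromere. The B73 share does not separate its own centromere from the flanks, so it says little about the stretch. The medians of the whole libraries were 193 bp in B73, 169 bp in F3-152 and 306 bp in F3-600, and lengths are therefore compared only within a library.

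**Figure D5:**
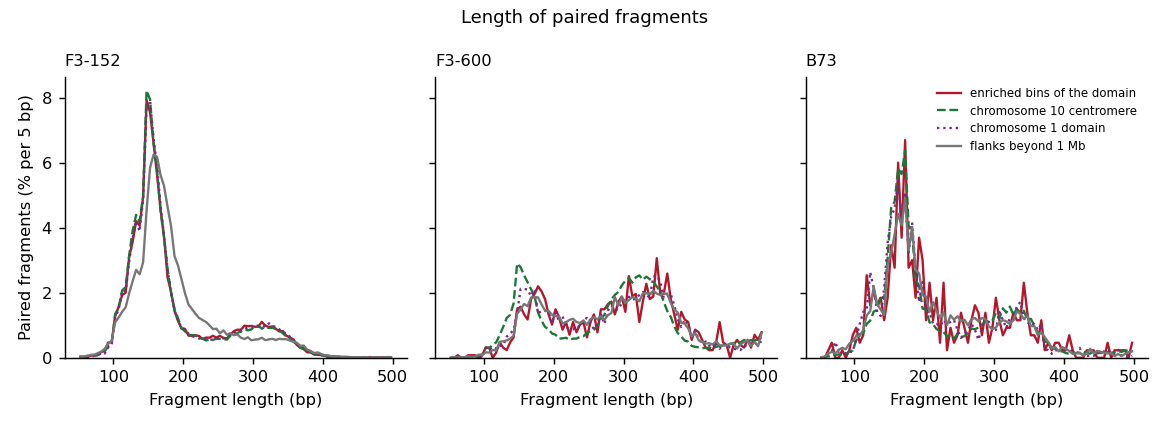
Length of paired fragments in bp, as a percentage per 5 bp, in 1 panel per library, for the enriched bins of the domain (red), the chromosome 10 centromere (green dashes), the chromosome 1 domain (purple dots) and the flanks beyond 1 Mb (grey). In F3-152 the red line lies on those of the other 2 enriched regions, with medians of 158 to 159 bp against 171 bp in the flanks.

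Single bins varied around this. The median length of the 33 enriched bins of F3-152 ranged from 151 to 169 bp, with 159 bp in the middle, and each bin had at least 395 paired fragments. The 60 flank blocks of 100 kb ranged from 159 to 180 bp, with 170.5 bp in the middle and as few as 79 fragments, so single bins and blocks overlapped. The share of longer fragments, over 250 bp, was also larger in the enriched bins, at 20.6% against 16.1% in the flanks beyond 1 Mb.

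Repeated reads were more common in the enriched bins of F3-152 than in its flanks. In the enriched bins of F3-152 80.8% of the reads had a distinct start, end and strand, against 98.1% in the flanks beyond 1 Mb, 82.9% in the enriched bins of the chromosome 10 centromere and 84.6% in those of the chromosome 1 domain. F3-600 had 99.1% in the same bins and B73 82.8%. The share of plus-strand reads in the enriched bins of F3-152 had an interval of 49.6% to 50.4%. Reads with the top mapping quality of 60 made up 66.1% there, 56.5% in the gap bins and 59.1% in the flanks beyond 1 Mb. In the gap bins of F3-600 this share was 42.1%, against 59.4% in the bins enriched in F3-152, and in B73 it was 51.3% against 63.4%. Over chromosomes 1 to 10 the share was 56.75% in F3-152, 55.2% in F3-600 and 58.4% in B73. The gap reads were thus placed with lower quality than those of the enriched bins in all 3 libraries. In F3-152 they were near the level of their library, and in F3-600 and B73 below it. The part of mapping quality in the low levels of the gaps was not tested.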

How the data were processed

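Anti-CENH3 ChIP-seq of young leaves was deposited for B73, F3-152 and F3-600, 1 library each. The authors' methods give BWA mapping of paired reads to B73 RefGen_v4 for B73, and the submitters' processing notes name BWA, CASAVA and that build for all. The deposited files list aligned reads beside a mapping quality score, with none below 20 and none above 60, which the authors did not normalize. Whether duplicates were removed is not given in the sources used here.

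Each read was assigned by its midpoint to a 10-kb bin and a 1-kb window. A domain joined enriched bins separated by at most 500 kb. Mates on opposite strands under 1000 bp apart gave fragment lengths. Intervals are 95% exact Poisson or binomial over fragments, but over windows for empty windows and over reads for strand. The region, rules and lists were chosen with earlier results of these data known. The sites named are the 5 longest runs and gaps, the 5 highest and lowest enriched bins, 3 bins on each side of both ends, and the 5 highest windows and longest empty runs. The clusters, the 0.5 times limit, the blocks and the 160 bp limit were chosen after seeing the data. On simulated counts of 15098 bins, the calling code recovered both ends and the number of runs in 150 of 150 draws. The planted runs were set above the threshold and the background below 5 times the median. The F3-152 domain has bins just above and just below the threshold, so these draws do not show how well its ends and runs are placed. Alternatives covered threshold, merging, bin and window size, read filters, scaling and thinning. Tables were made with pandas 2.3.3 and NumPy 2.4.6 under Python 3.11.15, intervals with SciPy 1.17.1 and figures with Matplotlib 3.10.9.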

Additional observations from a re-analysis of the deposited data

How the results depend on the processing

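The 7 results were recomputed in 47 ways in all. In 29 the value kept to its counting interval (levels, shares) or to 1.5 times the value reported (lengths, counts), and in 18 it moved farther. The enriched length of F3-152 (330 kb) was 550 kb at 5 times the median and 150 kb at 20 times, where the span was 480 kb in 5 runs, as follows from a stricter limit. Merging over 100 kb split the span of 930 kb and left 280 kb. The 12 runs became 21 with bins of 5 kb and 7 with bins of 20 kb. The mean level of F3-152 (9.06) was 9.59 at a mapping quality of at least 30, 7.496 with 1 read per start, end and strand, 9.26 scaled to the median of chromosome 10 and 8.19 scaled to the mean of all bins. The same 2 scalings gave 0.601 and 0.640 for F3-600 (0.685), and the mean of all bins gave 0.828 for B73 (0.948). Empty windows of F3-152 (33.4%) were 42.3% at a mapping quality of at least 30, 40% after thinning to the reads of B73, 21.7% in windows of 2 kb and 9.68% in windows of 5 kb. The cause of the shifts from read filters and scaling was not tested. No paired analysis was possible because each line had 1 library. The depth of B73 limits what an empty window of 1 kb can show, and without an input library, a replicate or a genome sequence the low stretches and the copy number could not be examined.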
